A study of Mus musculus with 18 samples.

Results

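TGF-beta signalling was followed through 10 genes measured by RNA-seq in mouse left ventricles: the ligands Tgfb1, Tgfb2 and Tgfb3, the receptors Tgfbr1, Tgfbr2 and Tgfbr3, the signal transducers Smad3 and Smad7, the latency protein Ltbp1 and the distant family member Gdf15. They were taken by name, 10 of the 38355 gene identifiers in the count tables, and all 10 were among the 14876 genes that passed the filter on low counts. The 18 libraries fell into 4 groups: 3 of cycD2 TAC, 5 of cycD2 Shunt, 5 of cycD2 sham and 5 of WT. All mice were (DBA/2J x C3HeB/FeJ)F1 hybrids. The cycD2 mice carried the MHC-cycD2 transgene, in which a myosin heavy chain promoter drives cyclin D2 in heart muscle cells, and the WT mice did not. TAC, transverse aortic constriction, loads the ventricle with pressure, and Shunt, an aortocaval fistula, loads it with volume; both and the sham operation were done at 8 weeks of age, and the WT mice had no treatment. Which of the sham operations the sham mice had is not stated in the labels, and sham against WT joins the transgene with an operation. The age at tissue collection was not used here.

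TGF-beta ligands are secreted as latent complexes, in which the propeptide keeps the ligand inactive and an LTBP protein ties it to the extracellular matrix. Once released by integrins, proteases or thrombospondin, the ligand binds the type II receptor, which phosphorylates the type I receptor, and this phosphorylates SMAD2 and SMAD3, which enter the nucleus with SMAD4. In the heart the pathway is best known for turning on collagen and other matrix genes in fibroblasts, and it also acts on muscle and vessel cells.

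Library facts bear on every value below. Total counts over genes ran from 19297821 to 30594075 per library. Ccnd2, which the transgene carries, stood at 17739 to 30478 CPM (counts scaled to a common library size) in all cycD2 libraries except the library labelled cycD2 TAC 2, which had 228.23 CPM against 140.54 to 189.04 CPM in WT. That library goes against its genotype label, so most TAC results below carry, one by one or grouped, their values without it. The values within a clock phase or with a covariate include it. The female transcript Xist had 3659 and 2644 counts in cycD2 TAC 1 and the library labelled cycD2 TAC 2 and 3408 to 5787 in the 5 Shunt libraries, against 4 to 13 in all others, which carried the Y-linked Ddx3y. Sex and Shunt therefore cannot be told apart in the comparisons of Shunt with sham and of Shunt with WT. Shunt against WT also joins the transgene with an operation. The clock genes Arntl and Dbp also divided the libraries: the log2 CPM of Arntl minus that of Dbp lay at 2.43 to 3.07 in TAC, lay at -8.42 to -2.27 in Shunt, and split sham and WT, where Arntl was above Dbp in sham 1 and 2 and in WT 1, 2 and 3. The heart muscle markers summed to 77989.8 to 112609 CPM in TAC, 99448 to 108364 CPM in Shunt, 112245 to 127618 CPM in sham and 102795 to 115393 CPM in WT, and none was at 0 in all libraries. The lowest TAC sum was that of the library labelled cycD2 TAC 2, with 100190.2 CPM in TAC 1 and 112609 CPM in TAC 4.

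The DNA just before the start of 4 of these genes is shown because they cover the range of responses described below: Tgfb2 and Gdf15 had the largest increases in TAC against sham, Ltbp1 was lower with TAC, and Tgfb1 rose least among the ligands. Each run holds the 250 bases before the RefSeq start on the gene's own strand, 5′ to 3′, in build GRCm38.p6, with matches to searched motifs in capitals. The motifs were the SMAD core CAGAC, the AP-1 site TGACTCA, the CRE site TGACGTCA and the ATF4 composite site TGATGCAA, each read on both strands, so that GTCTG in capitals is the SMAD core on the other strand.
Tgfb2, chr1:186705990-186706239, minus strand: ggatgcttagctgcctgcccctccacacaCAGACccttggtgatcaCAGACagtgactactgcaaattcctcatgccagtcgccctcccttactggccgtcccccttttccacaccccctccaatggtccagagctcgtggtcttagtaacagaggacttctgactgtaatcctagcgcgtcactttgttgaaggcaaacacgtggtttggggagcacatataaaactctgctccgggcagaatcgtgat
Gdf15, chr8:70632457-70632706, minus strand: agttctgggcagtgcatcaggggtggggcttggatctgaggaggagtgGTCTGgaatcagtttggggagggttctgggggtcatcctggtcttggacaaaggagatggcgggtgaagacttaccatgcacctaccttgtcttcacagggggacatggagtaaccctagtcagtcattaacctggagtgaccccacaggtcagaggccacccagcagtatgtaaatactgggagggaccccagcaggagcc
Ltbp1, chr17:75005279-75005528, plus strand: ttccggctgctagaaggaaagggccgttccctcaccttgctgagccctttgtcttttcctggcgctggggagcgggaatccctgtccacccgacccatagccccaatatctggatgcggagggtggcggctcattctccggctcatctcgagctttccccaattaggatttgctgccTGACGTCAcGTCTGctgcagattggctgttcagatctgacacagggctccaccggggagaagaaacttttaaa
Tgfb1, chr7:25686752-25687001, plus strand: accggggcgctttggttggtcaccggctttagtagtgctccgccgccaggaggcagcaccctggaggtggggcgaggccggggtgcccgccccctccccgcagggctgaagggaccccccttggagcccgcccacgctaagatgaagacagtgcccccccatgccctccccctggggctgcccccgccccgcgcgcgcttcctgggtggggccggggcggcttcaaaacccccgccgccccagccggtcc
The capitals mark the SMAD core at -221 and -204 before the start of Tgfb2, at -202 in Gdf15 and at -64 in Ltbp1, with a CRE site at -73 in Ltbp1; the Tgfb1 window held none of the 4 motifs. The SMAD core lies in 49.6% of all 32851 promoter windows of 300 bases in the RefSeq table, the AP-1 site in 5.2%, the CRE site in 1.79% and the ATF4 site in 0.895%. The table holds 10 windows for 7 of the 10 genes. Of the others, the core stood at -160 in Tgfbr2, at -203 in the second window of Tgfbr1, at -116 in the second of Gdf15 and at -148 and -97 in the second of Ltbp1. The first Tgfbr1 window and the Smad3 window held none. These matches are letters in a window, and factor binding was not measured.

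With pressure load the 3 ligands, the type II receptor and Gdf15 rose, and the coreceptor Tgfbr3 and the latency protein Ltbp1 fell. Tgfb2 changed most among the ligands, 2.60 ± 0.20 on the log2 scale in TAC against sham (SE; 3 against 5 libraries), and Gdf15 stood at 3.37 ± 0.54. Gdf15 was the higher of these with all libraries, and Tgfb2 without the library labelled cycD2 TAC 2 (2.64 for Tgfb2 and 2.19 for Gdf15). With the level of Y-linked genes as a covariate the values were 2.17 for Tgfb2 and 1.55 for Gdf15. Those values rest mainly on TAC 4, the only TAC library with Y-linked transcripts, and do not settle the ranking. Smad3, Smad7 and Tgfbr1 were not called. In all, 5 members were called higher and 2 lower at an adjusted p under 0.05, against 16.4% of all tested genes called higher and 14.5% called lower in the same comparison. The median log2 fold change over the 10 members was 0.40, and over all tested genes 0.01. Where groups are said below not to overlap, in any comparison, the share of all tested genes that did so was not counted.

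**Figure D1:**
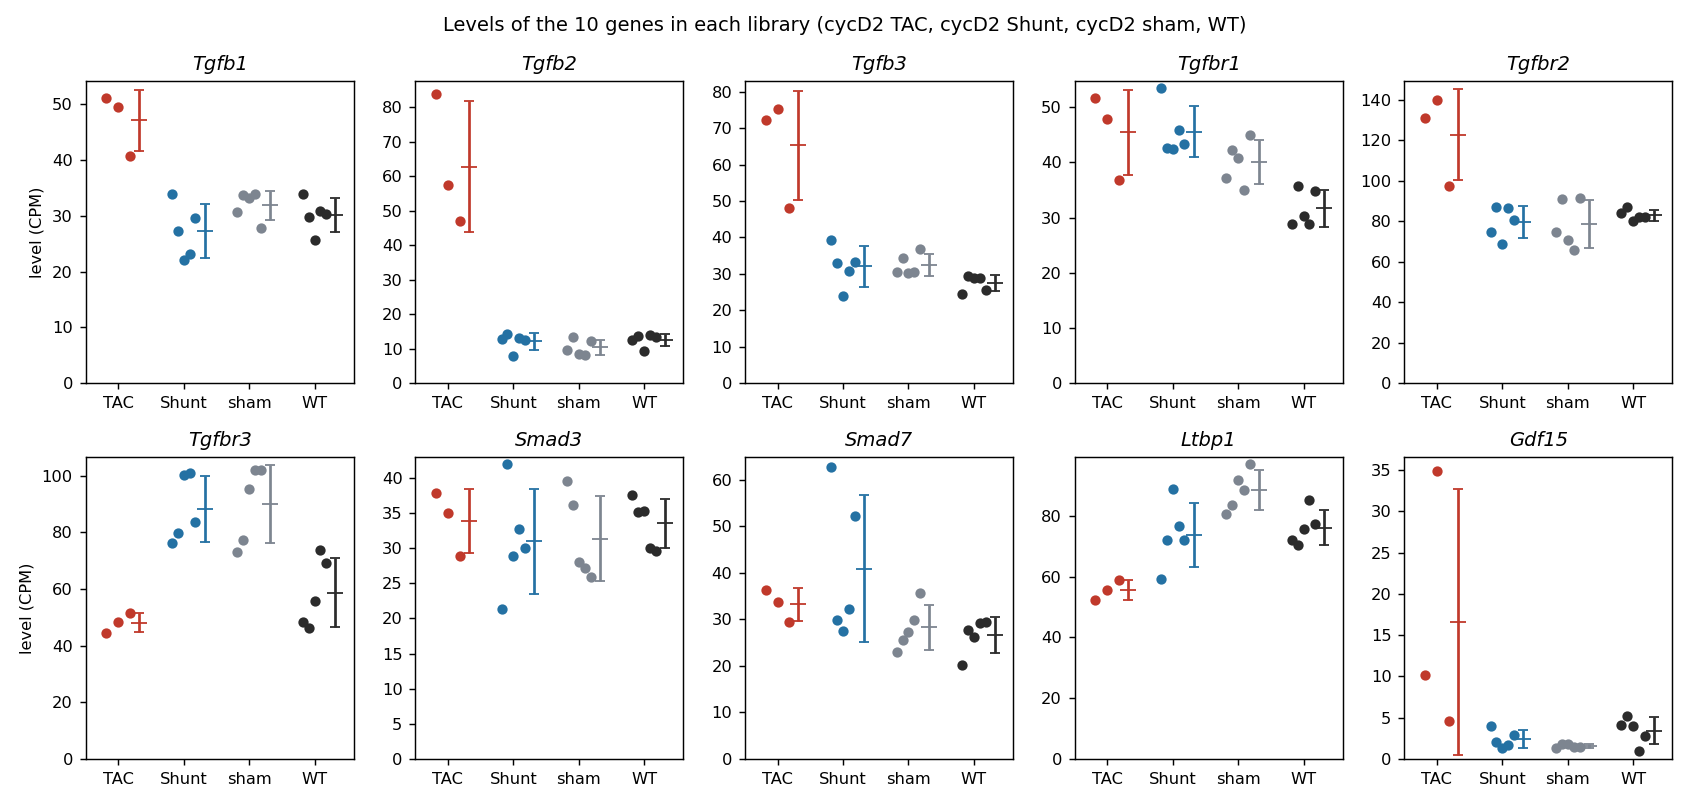
CPM of each of the 10 genes in every library, by group in the order cycD2 TAC, cycD2 Shunt, cycD2 sham and WT; points are libraries, and the dash with its error bar is the group mean with its SD. All 3 TAC libraries lie above all sham libraries for Tgfb1, Tgfb2, Tgfb3, Tgfbr2 and Gdf15, and below all of them for Tgfbr3 and Ltbp1. The share of all tested genes so separated was not counted.

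Among the ligands, Tgfb2 (ENSMUSG00000039239, chr1:186622792-186705989, minus strand) had 83.8 CPM in TAC 1, 57.4 CPM in the library labelled TAC 2 and 47.0 CPM in TAC 4, against 9.60, 13.4, 8.55, 8.12 and 12.1 CPM in sham 1 to 5. Every TAC library was several times above every sham library, and the TAC libraries varied more among themselves than the sham libraries did. The adjusted p of the difference was 1.03e-06 by edgeR's quasi-likelihood test with Benjamini-Hochberg adjustment, and without the library labelled TAC 2 the log2 fold change was 2.64 (adjusted p = 2.73e-06). Tgfb2 is the ligand that needs the coreceptor Tgfbr3 most for binding to the type II receptor. Its Shunt libraries, at 12.7, 14.4, 7.95, 13 and 12.6 CPM, ran slightly past the sham range at both ends.

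Tgfb3 (ENSMUSG00000021253, chr12:86056745-86079041, minus strand), known for its part in palate closure, had 72.3, 75.3 and 48.2 CPM in TAC 1, the library labelled TAC 2 and TAC 4, against 30.4, 34.4, 30.2, 30.6 and 36.7 CPM in sham 1 to 5. The groups did not overlap. The log2 fold change was 1.01 ± 0.14 (SE, adjusted p = 5.94e-05), and 0.88 without the library labelled TAC 2 (adjusted p = 5.57e-04). Tgfb1 (ENSMUSG00000002603, chr7:25687002-25705077, plus strand), the isoform most studied in fibrosis, moved least, with 51.1, 49.5 and 40.8 CPM in the 3 TAC libraries against 30.8, 33.7, 33.2, 34.0 and 27.8 CPM in sham. Here too the lowest TAC library was above the highest sham library. The log2 fold change was 0.56 ± 0.12 (adjusted p = 0.00211), and 0.51 without the library labelled TAC 2 (adjusted p = 0.0153).

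Per exon length Tgfb3 was the highest of the ligands in every group, at 19.3 ± 4.4 CPM per kb in TAC, 9.48 ± 1.65 in Shunt, 9.59 ± 0.866 in sham and 8.12 ± 0.657 in WT (SD, n = 3, 5, 5 and 5). Tgfb2 averaged 10.8 ± 3.28 CPM per kb in TAC, next to 9.35 ± 1.10 for Tgfb1 there, a gap smaller than the spread of Tgfb2. Outside TAC, Tgfb2 was the lowest of the ligands, at 2.09 ± 0.424 CPM per kb in Shunt, 1.79 ± 0.393 in sham and 2.18 ± 0.313 in WT, against 5.41 ± 0.965, 6.33 ± 0.521 and 5.98 ± 0.6 for Tgfb1 in the same groups. As a share of the summed per-length level of the 3 ligands, a measure chosen after the values were seen, Tgfb2 made up 27.2% ± 3.98 in TAC, 12.3% ± 1.70 in Shunt, 10.0% ± 1.65 in sham and 13.3% ± 1.48 in WT. The share was 31.5% in TAC 1, 23.6% in the library labelled TAC 2 and 26.6% in TAC 4, all above the highest share of the other groups.

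**Figure D2:**
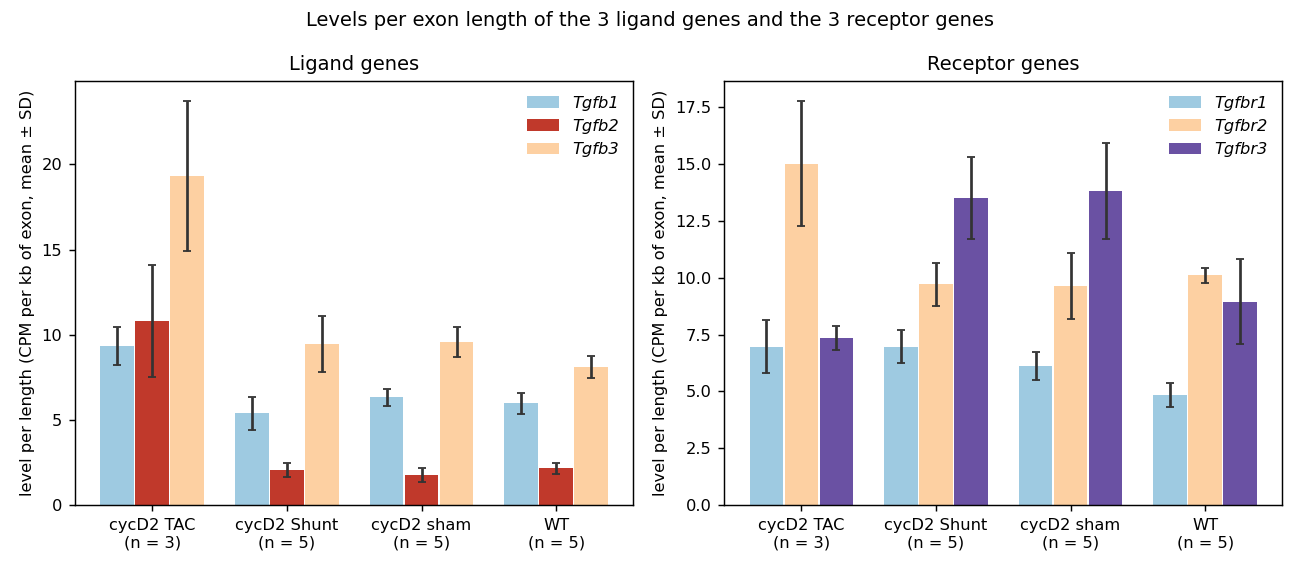
Level per exon length (CPM per kb) of the 3 ligands and the 3 receptors by group, in the order cycD2 TAC, cycD2 Shunt, cycD2 sham and WT; bars are means from 0 and error bars are SD over libraries. Tgfb2 stands at 10.8 CPM per kb in TAC and between 1.79 and 2.18 in the other groups, and Tgfbr3 at 7.35 in TAC against 13.8 in sham.

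The receptors moved in opposite directions with pressure load. Tgfbr2 (ENSMUSG00000032440, chr9:116084293-116175360, minus strand), the type II receptor that binds ligand first, had 131, 140.1 and 97.4 CPM in TAC 1, the library labelled TAC 2 and TAC 4, against 74.9, 90.9, 70.7, 66.0 and 91.6 CPM in sham 1 to 5. The groups did not overlap, though the lowest TAC library was only just above the highest sham library. The log2 fold change was 0.64 ± 0.12 (adjusted p = 5.30e-04), and 0.52 without the library labelled TAC 2 (adjusted p = 0.00592). Tgfbr3 (ENSMUSG00000029287, chr5:107106570-107289629, minus strand), or betaglycan, which presents ligand to the type II receptor and can be shed as a ligand trap, had 44.5, 48.4 and 51.4 CPM in TAC, against 73.1, 77.3, 95.2, 102 and 102 CPM in sham. All TAC libraries were below all sham libraries and close to each other. Its log2 fold change was -0.90 ± 0.16 (adjusted p = 4.04e-04), and -0.92 without the library labelled TAC 2 (adjusted p = 0.00276).

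Tgfbr1 (ENSMUSG00000007613, chr4:47353222-47414931, plus strand), the type I receptor kinase, had 51.7, 47.9 and 36.9 CPM in the TAC libraries, against 37.1, 42.2, 40.8, 35.0 and 45.0 CPM in sham. TAC 4 lay inside the sham range and the other TAC libraries above it. The log2 fold change of 0.19 ± 0.11 was not called (adjusted p = 0.229), but without TAC 4 it was 0.31 and called (adjusted p = 0.0401), and without the library labelled TAC 2 it was 0.13. Per exon length, Tgfbr2 made up 50.9% of the summed level of the 3 receptors in TAC, 32.2% in Shunt, 32.7% in sham and 42.5% in WT. Tgfbr3 made up 25.4% ± 4.77 in TAC, 44.6% ± 4.24 in Shunt, 46.5% ± 5.34 in sham and 37.1% ± 5.36 in WT, again a measure chosen after the values were seen. By library the Tgfbr3 share was 22.2% in TAC 1, 23.2% in the library labelled TAC 2 and 30.9% in TAC 4, the last just above the lowest WT share of 30.5%.

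Smad3 and Smad7 were not called with either load against sham. Smad3 (ENSMUSG00000032402, chr9:63646767-63757994, minus strand), which carries the signal to the nucleus, had 37.8, 35.0 and 28.9 CPM in TAC, against 39.6, 36.1, 28.1, 27.2 and 25.9 CPM in sham, ranges that overlapped throughout (log2 fold change 0.11 ± 0.17, adjusted p = 0.662). Within sham and WT the libraries with Arntl above Dbp held the higher Smad3 values, 39.6 and 36.1 CPM in sham and 37.6, 35.1 and 35.3 CPM in WT, against 25.9 to 28.1 CPM and 29.6 to 30.1 CPM in the others of each group. With the clock difference as a covariate its log2 fold change turned to -0.19. Smad7 (ENSMUSG00000025880, chr18:75367529-75395935, plus strand), an inhibitor that the pathway itself induces, had 36.4, 33.7 and 29.5 CPM in TAC, against 23.0, 25.6, 27.3, 29.8 and 35.6 CPM in sham. The ranges overlapped (log2 fold change 0.23 ± 0.23, adjusted p = 0.472). Without the library labelled TAC 2 the log2 fold change was 0.07 for Smad3 and 0.21 for Smad7.

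Ltbp1 (ENSMUSG00000001870, chr17:75005568-75392512, plus strand), which links latent TGF-beta to the matrix, had 52.4, 55.6 and 58.8 CPM in TAC, against 80.5, 83.7, 91.8, 88.5 and 97.2 CPM in sham. All TAC libraries were below all sham libraries, and both groups were narrow. The log2 fold change was -0.67 ± 0.10 (adjusted p = 1.28e-04), and -0.68 without the library labelled TAC 2 (adjusted p = 7.52e-04). The related Ltbp3, which can also hold latent ligand, went the other way, at 118 CPM in TAC against 64.3 CPM in sham (log2 fold change 0.88, adjusted p = 4.41e-04, and 0.60 without the library labelled TAC 2).

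Gdf15 (ENSMUSG00000038508, chr8:70629393-70632456, minus strand), a stress-induced hormone that signals in the brain rather than through TGF-beta receptors, had 10.2 CPM in TAC 1, 34.9 CPM in the library labelled TAC 2 and 4.59 CPM in TAC 4, against 1.35, 1.85, 1.84, 1.46 and 1.5 CPM in sham 1 to 5. Every TAC library was above every sham library, and the library labelled TAC 2 was far above the other TAC libraries. The group mean was 16.6 ± 16.1 CPM in TAC and 1.60 ± 0.228 CPM in sham (SD, n = 3 and 5). The log2 fold change was 3.37 ± 0.54 (adjusted p = 2.74e-04) with all libraries and 2.19 without the library labelled TAC 2 (adjusted p = 0.00261). Without TAC 1 it was 3.62, and without TAC 4 it was 3.81. Against WT, at 4.14, 5.16, 3.98, 0.904 and 2.81 CPM, the groups overlapped, since TAC 4 lay below WT 2, and the log2 fold change of 2.3 (adjusted p = 0.00277) was 1.13 and not called without the library labelled TAC 2 (adjusted p = 0.0607). Of the Gdf15 receptor, Gfral had 0 counts in all libraries, which does not exclude an expected count of up to about 3 per library. Its partner Ret was not called (log2 fold change -0.35, adjusted p = 0.128).

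**Figure D3:**
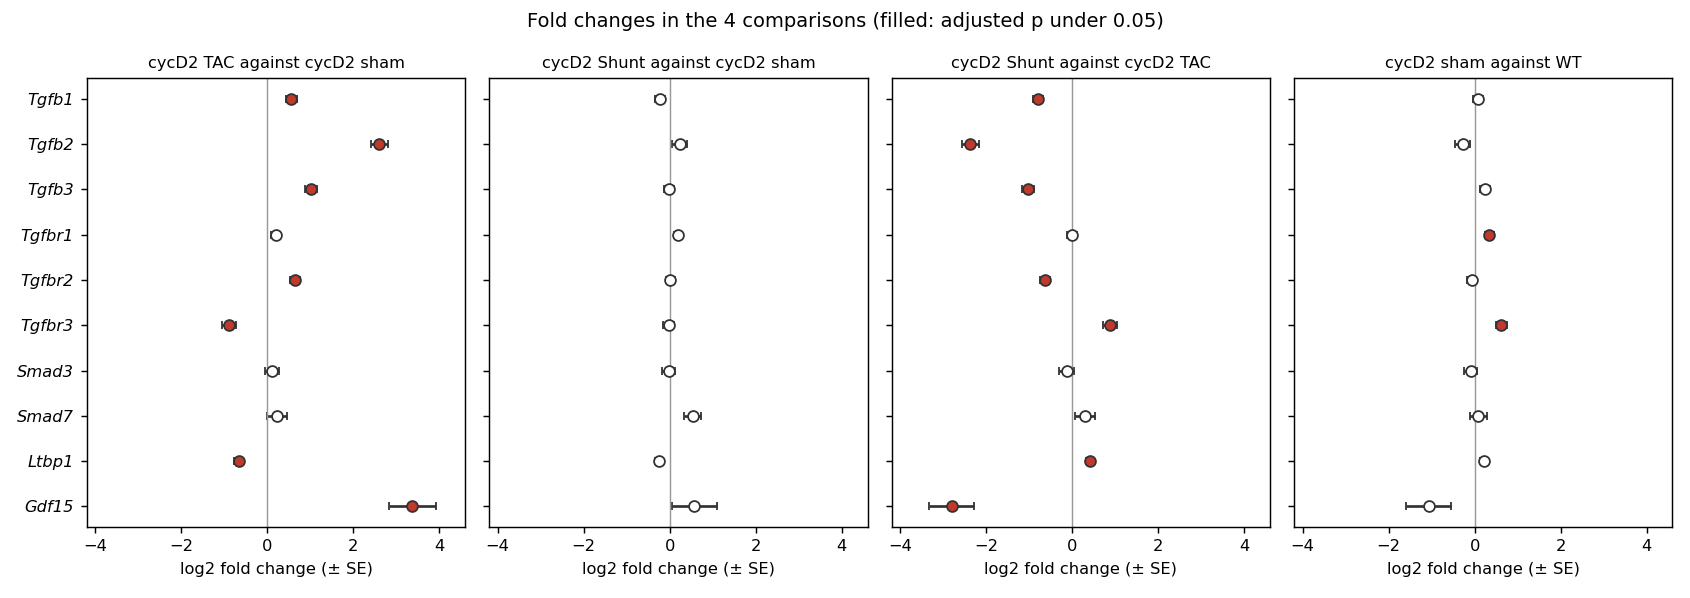
Fitted log2 fold change of each of the 10 genes in 4 comparisons, with error bars of 1 SE and filled points where the adjusted p was under 0.05. In TAC against sham 5 genes lie above 0 and 2 below with filled points, and in Shunt against sham none is filled.

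Values of other cell types and of the library differences moved along with the TAC results. In bulk tissue, fewer cells of a type and less RNA per cell cannot be told apart. Without the library labelled TAC 2, all tested genes had 1633 called higher and 1624 lower in TAC against sham, against 2440 and 2160 with it. Summed fibroblast markers ran from 2478 to 4793 CPM in TAC, against 1734 to 2680.4 CPM in sham, with 6 of 10 markers called higher and 1 lower (4 and 1 without the library labelled TAC 2). The smooth muscle and pericyte markers ran from 5648 to 7356 CPM in TAC, against 3696 to 4258 CPM in sham, with 7 of 10 called higher and 1 lower (5 and 1 without that library). Endothelial markers were at 1396 to 1542 CPM in TAC, against 1013 to 1336 CPM in sham, and the TAC sums lay inside the WT range of 1258 to 1652 CPM. In TAC against sham 6 of 10 were called higher and none lower. That count was 3 with the replicate number as a block and 2 to 4 with any 1 library left out, 2 without the library labelled TAC 2, TAC 4 or sham 5 and 3 without TAC 1, sham 2, sham 3 or sham 4. Of the heart muscle markers 5 of 10 were called lower and none higher, with 3 lower without the library labelled TAC 2. Macrophage markers had 0 of 10 called, at 352 to 572 CPM in TAC against 305 to 451 CPM in sham, but 5 were called higher without TAC 4, 2 without sham 2 and 1 by DESeq2. The atrial markers stood at 2500 to 5096 CPM in TAC, against 185 to 907 CPM in sham, and Nppa, also a stress gene of the loaded ventricle, made up 3469.7 CPM of it in TAC on average. Of 7 atrial markers tested 2 were higher and 2 lower, Tbx5 at -0.90 and Sbk2 at -1.55, with a list median of -0.11. Without the library labelled TAC 2, Nppa was at 5.96, Tbx5 at -0.78 and Sbk2 at -1.46, all called. In TAC 1 and TAC 4, without the library labelled TAC 2, the sums were 3316 and 2478 CPM for fibroblast and 5791 and 5648 CPM for smooth muscle and pericyte markers. They were 400 and 352 CPM for macrophage markers, inside the sham range, and 3866 and 2500 CPM for atrial markers. In WT the sums were 2258 to 2822 CPM for fibroblast and 4443 to 5047 CPM for smooth muscle and pericyte markers. No marker of these lists was at 0 in all libraries, and their part in the results was not tested.

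The clock and sex measures were set beside the same 7 calls. In the libraries with Arntl above Dbp, 3 of TAC and 2 of sham, the log2 fold change was 2.45 for Tgfb2, 1.01 for Tgfb3, 0.54 for Tgfb1, 0.56 for Tgfbr2, -0.65 for Tgfbr3 and -0.57 for Ltbp1, all called. For Gdf15 it was 3.37 and not called there (adjusted p = 0.0645). With the clock difference as a covariate all 7 were called, with Tgfbr3 at a log2 fold change of -0.57. With the level of Y-linked genes as a covariate, which leaves TAC 4 as the only male TAC library, only Tgfb2 (2.17, adjusted p = 0.00127) and Ltbp1 (-0.60, adjusted p = 0.0491) were called. Of all tested genes 287 were called higher and 196 lower with that covariate, against 2440 and 2160 without it. With that covariate Tgfb1 was at 0.36 (adjusted p = 0.295), Tgfb3 at 0.58 (adjusted p = 0.0875), Tgfbr2 at 0.29 (adjusted p = 0.314), Tgfbr3 at -0.82 (adjusted p = 0.0898) and Gdf15 at 1.55 (adjusted p = 0.244).

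**Figure D4:**
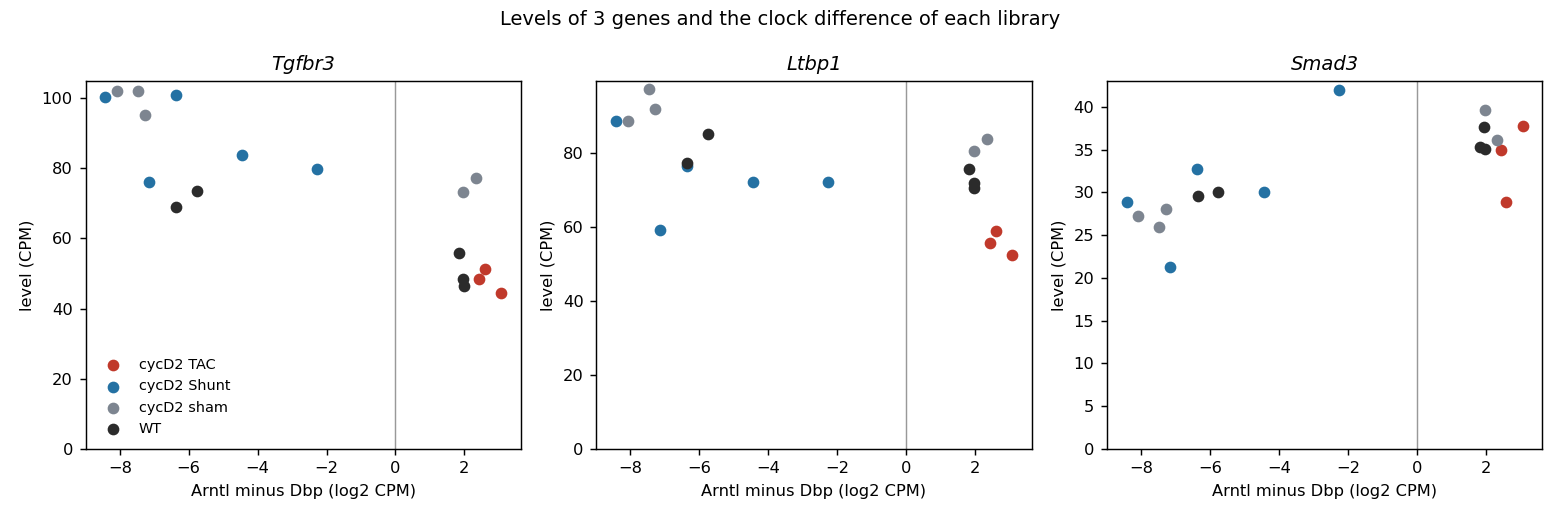
Level (CPM) of Tgfbr3, Ltbp1 and Smad3 against the difference of Arntl minus Dbp (log2 CPM) in each library, 1 point a library, coloured by group: cycD2 TAC, cycD2 Shunt, cycD2 sham and WT. TAC libraries lie at clock differences of 2.43 to 3.07 and Shunt libraries at -8.42 to -2.27, while sham and WT have libraries on both sides.

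With volume load no member was called against sham by edgeR's quasi-likelihood test: 0 were higher and 0 lower, where 0.108% of all tested genes were called higher and 0.134% lower. At an unadjusted p under 0.05 by edgeR there were 2 of 10, where 14.6% of all tested genes passed, and DESeq2 called 0. All 10 genes overlapped between Shunt and sham, and the share of all tested genes that did so was not counted. The nearest to a call was Ltbp1, with 59.1, 72.1, 88.7, 76.6 and 72.2 CPM in Shunt 1 to 5 against 80.5 to 97.2 CPM in sham (log2 fold change -0.26 ± 0.09, adjusted p = 0.206). Only Shunt 3 was inside the sham range. Smad7 had 62.8 and 52.3 CPM in Shunt 1 and Shunt 5, against 27.4 to 32.2 CPM in the other Shunt libraries and 23.0 to 35.6 CPM in sham (log2 fold change 0.53 ± 0.20, adjusted p = 0.241). In log2 fold change the ligands were at -0.23 ± 0.11 for Tgfb1, 0.23 ± 0.18 for Tgfb2 and -0.02 ± 0.12 for Tgfb3, and Gdf15 at 0.57 ± 0.52. Among the receptors, Tgfbr1 was at 0.19 ± 0.10, Tgfbr2 at 0.01 ± 0.10 and Tgfbr3 at -0.03 ± 0.13, with Smad3 at -0.02 ± 0.15. A missed call does not show that the levels are alike, and sex differs fully between these groups.

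Set directly against each other, the loads differed in 7 of the 10 genes; the TAC libraries are shared with the comparison of TAC with sham. Members called numbered 2 higher and 5 lower in Shunt against TAC, where 13.3% of all tested genes were higher and 13.6% lower. These member counts were again 2 and 5 when the library labelled TAC 2 was left out, where 1346 of 15033 tested genes were higher and 1357 lower. In that fit Tgfb2 was at -2.43, Tgfb3 at -0.91, Tgfb1 at -0.75, Tgfbr2 at -0.51, Tgfbr3 at 0.89 and Ltbp1 at 0.41. Tgfb2 averaged 12.1 ± 2.45 CPM in Shunt and 62.7 ± 19 CPM in TAC (log2 fold change -2.37 ± 0.20, adjusted p = 2.40e-06). Tgfb3 averaged 32.1 ± 5.57 CPM in Shunt and 65.3 ± 14.9 CPM in TAC (-1.03 ± 0.14, adjusted p = 8.03e-05), and Tgfb1 27.3 ± 4.86 CPM in Shunt and 47.1 ± 5.55 CPM in TAC (-0.79 ± 0.12, adjusted p = 2.25e-04). No Shunt library reached the lowest TAC library for any ligand. Tgfbr2 was lower in Shunt, at 79.5 ± 7.78 CPM against 123 ± 22.4 CPM in TAC, by a log2 fold change of -0.63 (adjusted p = 8.80e-04). Tgfbr3 was higher in Shunt, at 88.3 ± 11.8 CPM against 48.1 ± 3.46 CPM in TAC, by 0.88 (adjusted p = 7.40e-04). With the clock difference as a covariate Tgfbr3 was at 0.46 (adjusted p = 0.0135) and Tgfbr2 at -0.51 (adjusted p = 0.0259), both called.

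Gdf15 averaged 2.39 ± 1.06 CPM in Shunt and 16.6 ± 16.1 CPM in TAC, a log2 fold change of -2.80 ± 0.52 (adjusted p = 0.00114) that was -1.63 without the library labelled TAC 2 (adjusted p = 0.017). Ltbp1 averaged 73.8 ± 10.6 CPM in Shunt and 55.6 ± 3.21 CPM in TAC, a log2 fold change of 0.41 ± 0.10 (adjusted p = 0.00632). With the clock difference as a covariate Ltbp1 was at 0.25 and no longer called (adjusted p = 0.149). No clock phase is shared by Shunt and TAC libraries, so no value within a phase could be had. Tgfbr1, Smad3 and Smad7 were not called, with log2 fold changes of 0.00 ± 0.11, -0.13 ± 0.17 and 0.30 ± 0.23.

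With the transgene and sham operation, against WT, 2 of the 10 members rose and none fell, where 13.5% of all tested genes were called higher and 14.9% lower. Tgfbr3 had 73.1, 77.3, 95.2, 102 and 102 CPM in sham 1 to 5, against 48.3, 46.3, 55.9, 73.6 and 69.0 CPM in WT 1 to 5. Only WT 4 reached into the sham range, and within both groups the libraries with Dbp above Arntl were the higher ones. Its log2 fold change was 0.62 ± 0.13 (adjusted p = 0.00226), with 0.60 among libraries with Arntl above Dbp (adjusted p = 0.0162) and 0.50 among those with Dbp above Arntl (adjusted p = 0.024). Tgfbr1 had 35.0 to 45.0 CPM in sham, against 28.9, 35.8, 30.3, 28.8 and 34.8 CPM in WT, with WT 2 above sham 4 (log2 fold change 0.34 ± 0.10, adjusted p = 0.0168). Within the clock phases Tgfbr1 was at 0.34 (adjusted p = 0.184) and 0.36 (adjusted p = 0.101), no longer called. Tgfb3 did not overlap between the groups, at 30.2 to 36.7 CPM in sham against 24.5 to 29.5 CPM in WT, but was not called (0.24 ± 0.12, adjusted p = 0.162). Ltbp1 was not called either (0.21 ± 0.09, adjusted p = 0.0718), though it was without WT 4 (0.27, adjusted p = 0.033) and without sham 1 (0.26, adjusted p = 0.0457). Of the cell type markers, 5 of 10 endothelial, 4 of 10 smooth muscle and pericyte and 1 of 10 fibroblast markers were called lower, and none of these higher. Leaving out 1 library gave 3 to 6, 4 to 5 and 0 to 2. Heart muscle markers had 1 of 10 called each way, and of 7 atrial markers 4 were higher and 1 lower. Their part was not tested.

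The order of the 4 group levels differed by gene. For Tgfb1, Tgfb2, Tgfb3, Tgfbr2 and Gdf15, TAC was highest and differed from the next group, and the other 3 groups did not differ from their neighbours in the order. For Tgfbr2 and Gdf15 that next group was WT, and with the Y-linked covariate TAC against WT was at 0.21 for Tgfbr2 (adjusted p = 0.431) and 0.41 for Gdf15 (adjusted p = 0.767), both not called. Among libraries with Arntl above Dbp, Gdf15 was at 1.92 in TAC against WT and not called (adjusted p = 0.0928). For Ltbp1, TAC was lowest and differed from Shunt, its neighbour. Tgfbr3 was high in sham and Shunt and low in WT and TAC, where TAC against WT was at -0.29 and not called (adjusted p = 0.168). Shunt against WT was at 0.59 for Tgfbr3 (adjusted p = 0.00241), and at 0.31 and not called among libraries with Dbp above Arntl (adjusted p = 0.0711). With the Y-linked covariate that value was 0.74 and not called (adjusted p = 0.215). Sex differs fully between Shunt and WT, so covariate values for Shunt against WT tell sex apart only through the TAC libraries. Tgfbr1 was lowest in WT, at 31.7 ± 3.34 CPM, against 45.5 ± 7.67 in TAC, 45.6 ± 4.67 in Shunt and 40.0 ± 3.99 in sham. With the Y-linked covariate Tgfbr1 was at 0.21 in TAC against WT (adjusted p = 0.422) and 0.03 in Shunt against WT (adjusted p = 0.955), neither called. No neighbours differed for Smad3 or Smad7, though Smad7 was called in Shunt against WT (0.62 ± 0.20, adjusted p = 0.0253), a call that 8 of 22 alternatives ended. Among these were leaving out Shunt 1 (0.41, adjusted p = 0.0765), Shunt 5 (0.52, adjusted p = 0.0712) or WT 1 (0.54, adjusted p = 0.0682), the clock covariate (0.48, adjusted p = 0.0992), the libraries with Dbp above Arntl alone (0.48, adjusted p = 0.32) and the Y-linked covariate (0.41, adjusted p = 0.687).

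Other genes of the pathway were counted from lists chosen with earlier results known. Of 18 tested genes for latency and activation, 12 rose with TAC against sham and none fell, with a median log2 fold change of 0.77. Mmp2, a matrix protease that can release latent TGF-beta, averaged 287 ± 78.1 CPM in TAC and 109 ± 19.4 CPM in sham (log2 fold change 1.39, adjusted p = 1.00e-05), and the integrin subunit Itgb5 was at 0.65 (adjusted p = 2.01e-04). Thbs1, the thrombospondin that activates latent TGF-beta and was singled out after its value was seen, was at 1.62 and not called (adjusted p = 0.118). Of 28 tested target genes 15 rose and none fell, with a median of 1.32. Col1a1 averaged 926 ± 406 CPM in TAC and 187 ± 75.2 CPM in sham (log2 fold change 2.31, adjusted p = 1.17e-04), with Col1a2 at 1.96 and Col5a1 at 1.5, all fibrillar collagen chains. Without the library labelled TAC 2, 10 latency genes and 13 targets rose, and Mmp2 was at 1.19, Itgb5 at 0.44, Col1a1 at 1.92, Col1a2 at 1.58 and Col5a1 at 1.22, all called. Acta2 and Id1, textbook targets chosen after their values were seen, were at 0.38 and -0.14 and not called.

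Inhibitors rose with TAC as well: 8 of 17 tested were called higher and none lower, with a median log2 fold change of 0.55. Fstl3, a secreted activin inhibitor, averaged 8.93 CPM in TAC and 1.87 CPM in sham (log2 fold change 2.24, adjusted p = 9.03e-05), Bgn, the matrix proteoglycan biglycan, 1219.6 CPM in TAC and 326 CPM in sham (1.91, adjusted p = 2.98e-04), and the corepressor Tgif1 was at 1.01 (adjusted p = 1.97e-04). Without TAC 1 or without the library labelled TAC 2 the count was 5, with Fstl3 at 2.03, Bgn at 1.42 and Tgif1 at 0.81 in the second case, all called. Of 13 other ligands of the superfamily 2 rose and 1 fell. Bmp1, a protease listed with the ligands by name, was at 0.98 (adjusted p = 1.58e-05), Gdf6 averaged 3.55 ± 2.55 CPM in TAC and 0.492 ± 0.279 CPM in sham (2.81, adjusted p = 2.27e-04), and Gdf10 was at -1.43 (adjusted p = 0.0441). Without the library labelled TAC 2, Bmp1 was at 0.84 and Gdf6 at 2.05, both called, and Gdf10 at -1.40, not called (adjusted p = 0.132). The median of that list was 0.31.

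Of 12 other receptors 3 rose and 3 fell with TAC, with a median of -0.05. Acvrl1, the endothelial type I receptor, was at 0.44, the activin receptor Acvr1b at -0.30, and the BMP coreceptor Rgma averaged 80.9 CPM in TAC and 166 CPM in sham (log2 fold change -1.04, adjusted p = 0.00201). The count of receptors that rose was 0 without the library labelled TAC 2 and 1 without TAC 1, sham 1, sham 3 or sham 4, and the count that fell was 1 without sham 3. With the replicate number as a block 1 receptor rose. Without the library labelled TAC 2, Rgma was at -0.86 and called (adjusted p = 0.0165), and Acvrl1 at 0.25 (adjusted p = 0.0627) and Acvr1b at -0.25 (adjusted p = 0.134) were not. Of 6 other SMADs, Smad1 was called higher (0.48) and Smad9 lower (-0.62), both of the BMP branch, and Smad9 was not called with the replicate block or without sham 3, TAC 1 or the library labelled TAC 2. Among 16 stress response and p53 genes, a list set beside Gdf15, 7 rose and 1, Mdm2, fell (-0.22), a call that the replicate block ended. Bbc3, a cell death gene of the p53 pathway, was at 1.18 (adjusted p = 4.55e-04), and the amino acid and folate enzymes Asns and Mthfd2 were at 0.83 and 1.25. That count of 7 was 3 without TAC 1 and 4 without the library labelled TAC 2, where Bbc3 was at 1.17, Asns at 0.83 and Mthfd2 at 1.25, all called.

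Over the 109 genes tested in these lists, each counted once, 47 were higher and 6 lower in TAC against sham. Of all tested genes 16.4% were called higher and 14.5% lower in that comparison. The list counts were 44 and 3 with the replicate number as a block, and 6 and 0 with the Y-linked covariate. With that covariate the calls over all tested genes fell as well, from 2440 higher and 2160 lower to 287 and 196. Among libraries with Arntl above Dbp, where all tested genes also had fewer calls both ways, the list counts were 24 and 2. Leaving out 1 library at a time gave 35 to 48 higher and 1 to 6 lower, with 1 lower without sham 3 and 3 lower without sham 4, sham 5 or any TAC library. In Shunt against sham 0 genes of these lists were called, with 2 ligands, 2 latency genes, 3 inhibitors, 2 targets and 2 stress genes at an unadjusted p under 0.05, and DESeq2 called 1 ligand and 1 target.

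**Figure D5:**
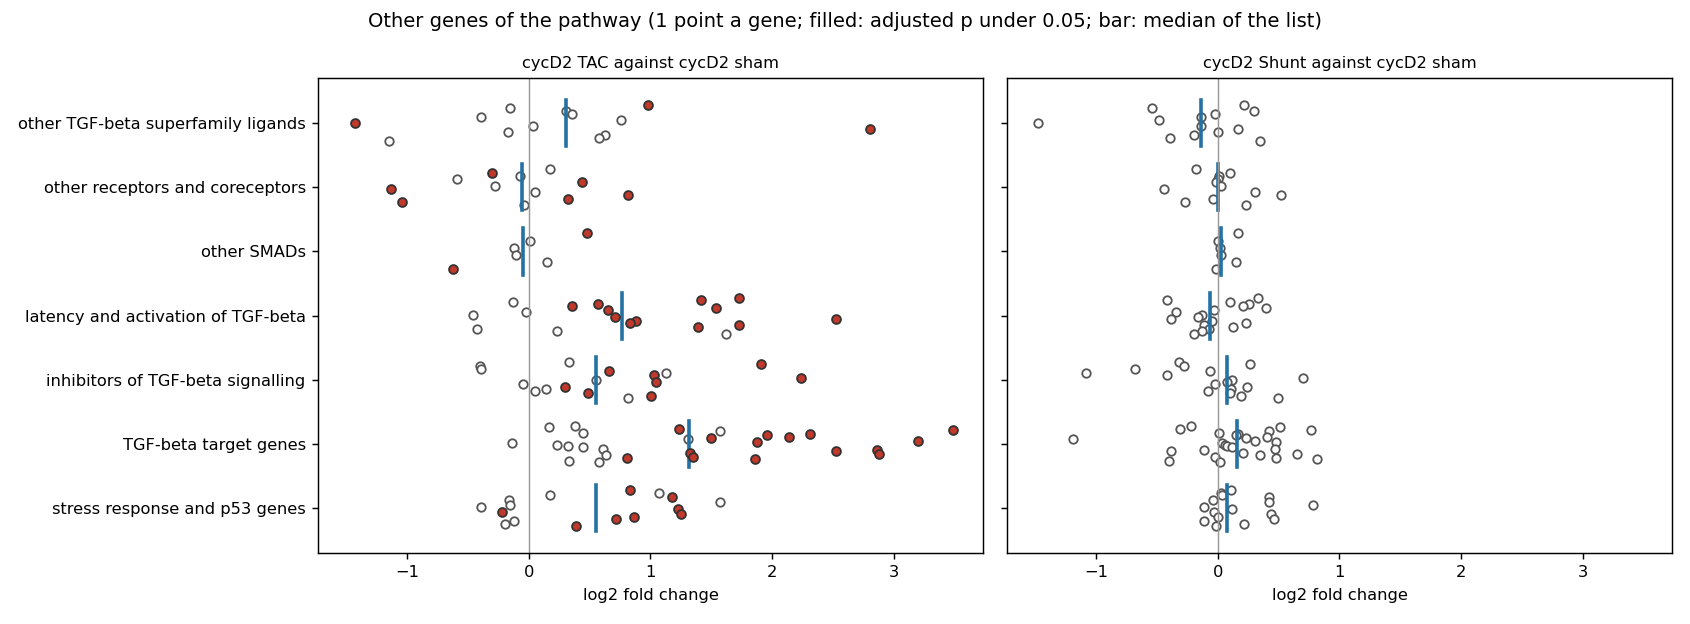
Log2 fold change of each tested gene in 7 lists around the 10 members, in TAC against sham and in Shunt against sham; points are genes, filled where the adjusted p was under 0.05, and vertical bars are list medians. In TAC against sham 15 targets, 12 latency genes and 8 inhibitors are filled above 0 and none below, and in Shunt against sham no point is filled.

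In Shunt against TAC the same lists gave 5 genes higher and 39 lower of 109, with the TAC libraries shared with the comparison above. Of all tested genes 13.3% were higher and 13.6% lower. Mmp2 was at -1.26 (adjusted p = 3.22e-05), the collagen crosslinking enzyme Lox at -2.97 (adjusted p = 2.04e-04) and the matricellular gene Ccn1 at -1.56 (adjusted p = 6.19e-05). By list, 12 of 28 targets, 10 of 18 latency genes and 8 of 17 inhibitors were lower and none of them higher. Without the library labelled TAC 2, 9 targets, 8 latency genes and 6 inhibitors were lower, with Mmp2 at -1.07, Lox at -2.08 and Ccn1 at -1.60, all called. With the clock difference as a covariate 24 list genes were lower, where 1053 of all 14876 tested genes were, against 2030 without it. The count of 5 higher was 1 without the library labelled TAC 2 and 3 without TAC 4, Shunt 2, Shunt 3 or Shunt 4.

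In sham against WT 11 of the 109 genes were higher and 6 lower, where 13.5% and 14.9% of all tested genes were. Within either clock phase all tested genes had fewer calls, both higher and lower. Among libraries with Arntl above Dbp 3 of the list genes were higher and 4 lower, and among those with Dbp above Arntl 6 and 2. With no filter on low counts 3 list genes were lower. Leaving out 1 library gave 8 to 11 higher and 4 to 9 lower. Bmp7, a BMP ligand, averaged 0.578 CPM in sham and 3.70 CPM in WT (log2 fold change -2.67, adjusted p = 3.45e-05), Rgma averaged 166 CPM in sham and 57.8 CPM in WT (1.52, adjusted p = 3.20e-05), and Smad9 averaged 10.3 CPM in sham and 4.21 CPM in WT (1.29, adjusted p = 5.28e-05). Furin, which cleaves the TGF-beta propeptide, averaged 224 CPM in sham and 152 CPM in WT (0.56, adjusted p = 2.59e-04), and Itgb8, an integrin subunit that activates TGF-beta, was at 1.23 (adjusted p = 0.00215). Ccng1, a p53 target, was at -0.73 (adjusted p = 2.21e-05).

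The genes most like the 3 members with the widest range of group means were found over the 18 libraries among 13610 protein-coding genes, by the root mean square difference of log2 CPM after centring each gene on its mean. For Gdf15, whose group means spanned 2.83 log2 units, these were Lox at 0.53, Adam12 at 0.57 and Clec11a at 0.58, where the median gene was at 1.22. For Tgfb2, with a span of 2.58, they included Fhl1 at 0.29 and Svep1 at 0.33, with the median gene at 0.97. For Tgfb3, with a span of 1.22, they were Cacnb3 at 0.15 and Ltbp3 and Ddah1 at 0.16, with the median gene at 0.52. The other members spanned less, from 0.15 for Smad3 to 0.89 for Tgfbr3.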

How the data were processed

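Left ventricle RNA was made into libraries with a TruSeq kit, per the labels' protocols, of a kind that does not keep strand. Per the submitters' processing notes, the build was GRCm38 (mm10) and the tools were STAR 2.3.0e, HTSeq 0.6.1p1, DESeq2 1.8, CASAVA 1.8.2, SAMtools 0.1.19 and FastQC, with no order given; the annotation release is not given in the sources used here. The authors deposited raw read counts per Ensembl gene for each library. Lines naming no gene were left out: per library, 13.644 to 22.781% without a feature and 1.432 to 2.16% ambiguous among unique alignments, and 37.613 to 45.937% not unique among all. Of 38355 identifiers, 36602 were matched to GENCODE M21, which gave symbols, coordinates and exon lengths. Exons of Tgfb2, Tgfb3 and Tgfbr3 overlap other M21 gene models without a line in the counts, so reads of the genes and of those models cannot be told apart.

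Genes were tested with edgeR 4.0.16 in R 4.3.3: filterByExpr with a minimum count of 10, TMM scaling, the robust quasi-likelihood test with 1 mean per group over all 18 libraries, and Benjamini-Hochberg adjustment over 14876 genes within each comparison, called under 0.05. SE was the size of the log2 fold change divided by the square root of F, and CPM used TMM library sizes. The biological coefficient of variation was 0.16. Alternatives were other scalings and filters, DESeq2 1.42.0, limma 3.58.1, the replicate block, a clock covariate (Arntl minus Dbp), a covariate of Y-linked genes, the clock phases and leaving out each library. The test was checked on simulated data. Labels do not say that samples of a group were separate animals, so p-values measure only the spread between samples. Same-numbered deviations correlated at 0.129, 0.151 and 0.157 between TAC and sham, each over the limit of 0.1. Only TAC 4 correlated best with the sham library of its own number, so whether numbers pair samples there is not settled. The main test had no block, and the replicate block was an alternative.

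The members and lists were chosen with earlier results of these data known. Beside the members, up to 3 called genes with the smallest p per list and comparison are named. Likeness was measured for the 3 members with the widest range of group means, with up to 3 genes each; 1 such gene is not reported here. Promoter sequences are from RefSeq, GRCm38.p6.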

Additional observations from a re-analysis of the deposited data

Results flagged for a closer look

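In 30 groups of 5 libraries, 1 per gene and group, the lowest or highest library was compared with the spread of its group by Dixon's criterion, and 2 stood apart. Chance gives about 1 in 20 groups. Tgfb2 in Shunt 3 was at 3.01 log2 CPM, below the other Shunt libraries at 3.67 to 3.86, with a gap of 0.773 of the group's range. Tgfb2 in WT 3 was at 3.26 log2 CPM, below the other WT libraries at 3.67 to 3.81, with a gap of 0.742 of the range. TAC, with 3 libraries, could not be examined this way.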

How the results depend on the processing

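Over the 10 genes and 4 comparisons, 840 alternative fold changes kept direction and side of the threshold in 786 cases, lost the call in 9, gained it in 7 and turned direction in 38, all 38 uncalled. The cause was not tested. With the Y-linked covariate, TAC against sham had 1 member higher and 1 lower, where all 14876 tested genes had 287 and 196, against 2440 and 2160 without it. With the clock covariate, Shunt against TAC had 1 member higher, where all genes had 1074, against 1985 without it. In sham against WT, the count higher was 4, and lower 1, with the pair fitted alone, where all genes had 2330 and 2301. Within either clock phase 1 member was higher, where all genes had 487 with Arntl above Dbp and 949 with Dbp above Arntl. Leaving out 1 library gave 5 to 6 higher and 2 lower in TAC against sham, 2 and 5 in Shunt against TAC, 0 in Shunt against sham, and 2 to 3 higher and 0 lower in sham against WT. All tested genes then had 1633 to 2600 higher and 1624 to 2324 lower in TAC against sham, and 1346 to 2158 and 1357 to 2198 in Shunt against TAC. In sham against WT they had 1556 to 2062 higher and 1771 to 2027 lower. The replicate block changed no call among the members in TAC against sham. In sham against WT not every correlation passed the limit of 0.1 (-0.132 to 0.303). There the replicate block brought Ltbp1 to a call at 0.21 (adjusted p = 0.0299). In Shunt against sham (-0.264 to 0.318) it made no call, and in Shunt against TAC (0.093 to 0.17) each library correlated best with its own number, and the block changed no call.

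Turned directions were as follows, as log2 fold changes. With the clock covariate Smad3 was at 0.01 in sham against WT, -0.19 in TAC against sham, 0.09 in Shunt against sham, 0.28 in Shunt against TAC, -0.18 in TAC against WT and 0.10 in Shunt against WT, Tgfbr1 at -0.03 in Shunt against TAC and Tgfb2 at 0.02 in Shunt against WT. With the Y-linked covariate TAC against sham had Tgfbr1 at -0.11 and Smad3 at -0.15, Shunt against TAC had Tgfbr1 at -0.18 and TAC against WT had Smad3 at -0.25. In Shunt against sham and Shunt against WT that covariate tells sex apart only through the TAC libraries. Shunt against sham had Tgfb2 at -0.46, Tgfbr1 at -0.29, Tgfbr2 at -0.54, Tgfbr3 at 0.11 and Gdf15 at -1.96, and Shunt against WT had Tgfb3 at -0.47 and Ltbp1 at 0.07. Among libraries with Arntl above Dbp, Smad3 was at 0.09 and Smad7 at -0.01 in sham against WT, and Smad3 at -0.16 in TAC against sham and -0.08 in TAC against WT. Among those with Dbp above Arntl, Smad3 was at 0.18 in Shunt against sham and 0.06 in Shunt against WT, and Gdf15 at 0.36 in Shunt against WT. Tgfbr1 in Shunt against TAC was at -0.003 with upper quartile scaling and -0.004 with the stricter filter, and Smad3 in TAC against WT at -0.05 with the block.

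Leaving out 1 library gave, in Shunt against sham, -0.10 to 0.07 for Tgfb3, -0.05 to 0.07 for Tgfbr2, -0.10 to 0.02 for Tgfbr3 and -0.15 to 0.09 for Smad3. It gave -0.13 to 0.10 for Tgfbr1 in Shunt against TAC, -0.01 to 0.17 for Smad7 in sham against WT, -0.07 to 0.12 for Smad3 in TAC against WT, and in Shunt against WT -0.14 to 0.06 for Tgfb2 and -0.12 to 0.02 for Ltbp1. Depth limits Gdf15 most, at 31 to 49 counts per sham library.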
